A study of Mus musculus with 16 samples.

Results

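ID proteins and E proteins are helix-loop-helix factors that act against each other, and 6 of their genes were followed: Id1, Id2 and Id3 for the ID proteins, and Tcf3, Tcf4 and Tcf12 for the E proteins. They were taken by gene name from a deposited table of 25650 genes, which held all 6. The data are 16 RNA libraries from Ba/F3, a mouse pro-B cell line that needs interleukin-3 to grow, and they fall into 4 groups of 4 libraries. The groups were ChimP3V3 cells under interleukin-6 (IL-6), ChimP3V3 cells in medium, gp130:IL-6R cells under IL-6 and gp130:IL-6R cells in medium. The gp130:IL-6R line, titled wild type, carried gp130, the signalling chain of the IL-6 receptor, together with the receptor's binding chain. The line called ChimP3V3 here carried a receptor labelled ChimP3V3:gp130Box1/2, and its cell line is labelled only as BaF3. IL-6 was given at 100 ng/ml. The sources used here do not give its duration, whether interleukin-3 was present, or whether a line was 1 clone.

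E proteins bind DNA at E-boxes, short sites of the form CANNTG, as pairs with each other or with tissue-restricted bHLH factors. ID proteins keep the helix-loop-helix that makes pairs but lack the basic region that touches DNA, so an E protein paired with an ID protein does not bind its sites. In the mouse, the E proteins made from Tcf3 are needed for commitment to the B lineage, and Id2 is needed for natural killer and innate lymphoid cells. BMP and TGF-beta signals through SMAD proteins, and cytokine signals through STAT proteins, are known inputs to Id genes.

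Before the values, the sequences just upstream of 3 of these genes are shown, because Id2 had the largest response among them, Id3 had no counts, and Tcf3 had the largest fall. Each line holds the 250 bases before the RefSeq start on the gene's own strand, on GRCm38.p6. Capitals mark every match of the searched motifs, which were TTCNNNGAA of STAT factors and its form with 1 more N in the middle, the general E-box CANNTG with its forms CAGCTG, which reads the same on both strands, and CAGGTG, then GGCGCC of SMAD factors, TGACGT of CREB factors and CCGGAA of ETS factors, on both strands. CANNTG covers the other E-boxes, so these matches overlap.
Id2, chr12:25096093-25096342, minus strand: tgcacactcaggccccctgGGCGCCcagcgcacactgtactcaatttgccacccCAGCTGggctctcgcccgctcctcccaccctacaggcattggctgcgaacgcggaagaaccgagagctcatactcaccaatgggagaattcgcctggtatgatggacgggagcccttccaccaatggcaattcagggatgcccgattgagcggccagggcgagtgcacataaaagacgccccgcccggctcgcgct
Id3, chr4:136143572-136143821, plus strand: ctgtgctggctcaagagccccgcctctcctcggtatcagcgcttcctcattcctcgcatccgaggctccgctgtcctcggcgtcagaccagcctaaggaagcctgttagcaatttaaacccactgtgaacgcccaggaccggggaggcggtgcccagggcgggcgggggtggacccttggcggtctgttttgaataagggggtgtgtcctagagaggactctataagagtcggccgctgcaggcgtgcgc
Tcf3, chr10:80433636-80433885, minus strand: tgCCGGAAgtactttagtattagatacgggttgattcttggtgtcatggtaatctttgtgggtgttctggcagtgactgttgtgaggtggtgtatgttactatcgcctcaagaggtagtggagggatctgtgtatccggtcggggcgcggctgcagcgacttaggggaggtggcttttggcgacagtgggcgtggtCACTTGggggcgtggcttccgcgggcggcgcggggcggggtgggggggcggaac
The Id2 window held GGCGCC at -231 to -226 and CAGCTG at -196 to -191, counted from the start. Of 32851 promoter windows of this length, 9.59% held GGCGCC and 13.0% held CAGCTG. The Tcf3 window held CCGGAA at -248 to -243 and CACTTG, a form of CANNTG, at -54 to -49, patterns found in 12.0% and 66.2% of all windows. None of the searched motifs was found in the Id3 window. None of the windows used for Id2, Id3, Tcf3 and Tcf12 held TTCNNNGAA or its longer form, which 7.02% and 5.85% of all windows held. The first of 3 Tcf12 windows held CAGCTG at -240 to -235, and another held CAAGTG, a form of CANNTG, at -149 to -144. No window of Id1 or Tcf4 was searched. A match is a description of these letters only.

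In the deposited coordinates, on GRCm39, Id1 lies at chr2:152578171-152579330 on the plus strand, Id2 at chr12:25143798-25147139 on the minus strand and Id3 at chr4:135870808-135873066 on the plus strand. Tcf3 lies at chr10:80245348-80269481 on the minus strand, Tcf4 at chr18:69476427-69822150 on the plus strand and Tcf12 at chr9:71749970-72019153 on the minus strand. No gene of the table overlapped a member on the opposite strand. Tcf12 overlapped 7 predicted or unnamed genes on its own strand, all with 0 counts.

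The libraries held 1275112 to 1650348 counts in 10968 to 11539 genes, and 9540 genes passed the filter on low counts. Of the 6 members, 5 passed. The total counts over the 16 libraries were 909 for Id1, 2036 for Id2, 1318 for Tcf3, 4422 for Tcf4 and 3367 for Tcf12. Nothing in the labels says that the libraries of a group came from separate cultures, so p-values measure the spread between these libraries, which may be technical. In 9 of 24 pairs of libraries within a group, the counts agreed within sampling noise. With such libraries summed and counted as 1, leaving 2 or 3 per group, no call of a member changed. Levels are CPM, counts divided by the scaled library total, and they are not compared between genes. Genes were called at an adjusted p under 0.05 in edgeR's quasi-likelihood test over the 9540 genes, and all adjusted p-values below come from it unless another tool is named. In bulk RNA, fewer cells of a type and less RNA per cell cannot be told apart.

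**Figure D1:**
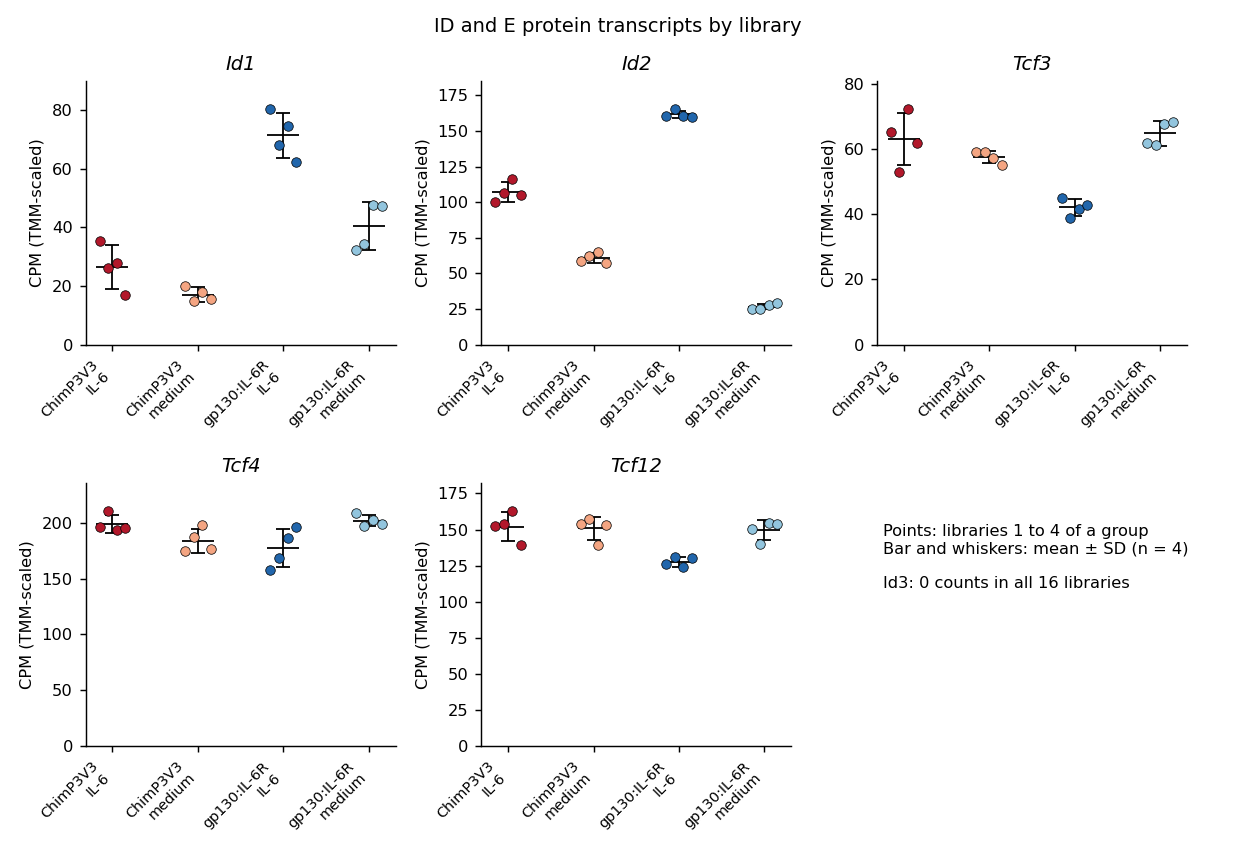
CPM of the 5 members with counts, in 1 panel per gene, for ChimP3V3 cells under IL-6 and in medium and gp130:IL-6R cells under IL-6 and in medium. Points are libraries, and bars with whiskers are the mean ± SD of 4. Id2 forms 4 separate levels, with gp130:IL-6R cells under IL-6 at 162 CPM on average and gp130:IL-6R cells in medium at 26.7 CPM.

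Id2, the ID gene with the widest range, rose under IL-6 in both lines, and more in gp130:IL-6R cells. In ChimP3V3 cells, its level was 99.8, 106, 116 and 105 CPM under IL-6, against 58.4, 62.2, 64.7 and 57.0 CPM in medium. All 4 libraries under IL-6 were above all 4 in medium, and the fold was 1.76 (log2 difference 0.82, SE 0.0803, adjusted p = 9.99e-11). The gp130:IL-6R cells had Id2 at 160.7, 165, 160.7 and 159.7 CPM under IL-6, against 24.8, 25.3, 27.8 and 28.9 CPM in medium. The libraries within each of these groups lay close together and the groups were far apart. The fold was 6.05 (log2 difference 2.60, SE 0.0852, adjusted p = 3.55e-26), a change larger in size than in 99.7% of the tested genes.

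Id1, a target of BMP signals in many cells, also rose under IL-6 in both lines. In ChimP3V3 cells, its level was 35.4, 26.0, 27.9 and 16.9 CPM under IL-6, against 20.1, 14.7, 17.9 and 15.6 CPM in medium. In those groups, 3 of the 4 libraries under IL-6 were above every library in medium and the fourth lay among them. The fold was 1.57 (log2 difference 0.65, SE 0.201, adjusted p = 0.0124), with 21 to 49 counts per library under IL-6 and 23 to 29 in medium. Without replicate 1 of the ChimP3V3 libraries under IL-6 the call was lost (log2 difference 0.44, adjusted p = 0.140), and over all alternatives its adjusted p lay between 0.00275 and 0.140. The gp130:IL-6R cells had Id1 at 80.3, 68.2, 74.8 and 62.5 CPM under IL-6, against 32.5, 34.3, 47.8 and 47.3 CPM in medium. The groups did not overlap, and the fold was 1.78 (log2 difference 0.83, SE 0.125, adjusted p = 4.63e-07).

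Id3, the ID gene paired with E proteins in many studies of mouse lymphocytes, had 0 counts in all 16 libraries. With 23303703 counts in all, this allows a level of up to 0.129 CPM over the whole set, for counting error only. Id4, the family's other member, also had 0 counts in every library. The ID transcripts detectable at this depth were therefore those of Id1 and Id2.

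The E protein genes changed less than Id2. None was called under IL-6 in ChimP3V3 cells, and all 3 were called lower in gp130:IL-6R cells. Tcf3, whose products are the E proteins of early B cells, stood in ChimP3V3 cells at 65.1, 52.8, 72.1 and 61.9 CPM under IL-6, against 59.1, 59.0, 57.2 and 55.0 CPM in medium. Those groups overlapped, and the difference did not pass the test (log2 difference 0.13, 95% interval -0.07 to 0.33, adjusted p = 0.427). Its level in gp130:IL-6R cells was 44.9, 38.8, 41.6 and 42.9 CPM under IL-6, against 61.7, 61.3, 67.7 and 68.3 CPM in medium. All 4 libraries under IL-6 were below all 4 in medium, with a log2 difference of -0.62 (SE 0.103, adjusted p = 2.69e-06), or 1.53-fold lower.

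Tcf12, which encodes the E protein HEB, stood in ChimP3V3 cells at 153, 154, 163 and 139 CPM under IL-6, against 154, 157, 139 and 154 CPM in medium. The libraries were mixed, and the difference did not pass the test (log2 difference 0.01, 95% interval -0.11 to 0.14, adjusted p = 0.923). Tcf12 in gp130:IL-6R cells stood at 126, 131, 124 and 130.1 CPM under IL-6, against 150.2, 140.1, 155 and 154 CPM in medium. These groups did not overlap, and the gene fell slightly, with a log2 difference of -0.23 (SE 0.0621, adjusted p = 0.00395), or 1.17-fold lower.

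Tcf4, the E protein gene known for its part in plasmacytoid dendritic cells, stood in ChimP3V3 cells at 196, 210.4, 193 and 195 CPM under IL-6, against 174, 187, 198 and 176 CPM in medium. Those groups overlapped, and the difference did not pass the test (log2 difference 0.11, 95% interval -0.01 to 0.23, adjusted p = 0.179). Tcf4 in gp130:IL-6R cells stood at 158, 168, 186 and 196 CPM under IL-6, against 208, 197, 202 and 199 CPM in medium. The highest library under IL-6 lay just below the lowest in medium, and the log2 difference was -0.18 (SE 0.0583, adjusted p = 0.00802), or 1.14-fold lower. The call was lost without replicate 1 of the gp130:IL-6R libraries under IL-6 (log2 difference -0.12, adjusted p = 0.108), and over all alternatives the adjusted p lay between 0.00209 and 0.108.

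In ChimP3V3 cells, 2 of the 5 members with counts were called, both higher, where 27.5% of all tested genes were called, 16.2% higher and 11.4% lower. All 5 were called in gp130:IL-6R cells, 2 higher and 3 lower, where 50.0% of all tested genes were called, 25.7% higher and 24.3% lower. With called genes this common, the counts say little about 5 genes, and the sizes of the changes are given beside them. The libraries did not overlap for 1 member, Id2, in ChimP3V3 cells, where 27.4% of tested genes had no overlap, and for all 5 in gp130:IL-6R cells, where 43.8% had none. In ChimP3V3 cells, the change was larger in size than in 96.4% of genes for Id2 and 93.6% for Id1. In gp130:IL-6R cells, it was larger than in 91.6% of genes for Id1, 83.5% for Tcf3, 42.6% for Tcf12 and 35.8% for Tcf4.

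**Figure D2:**
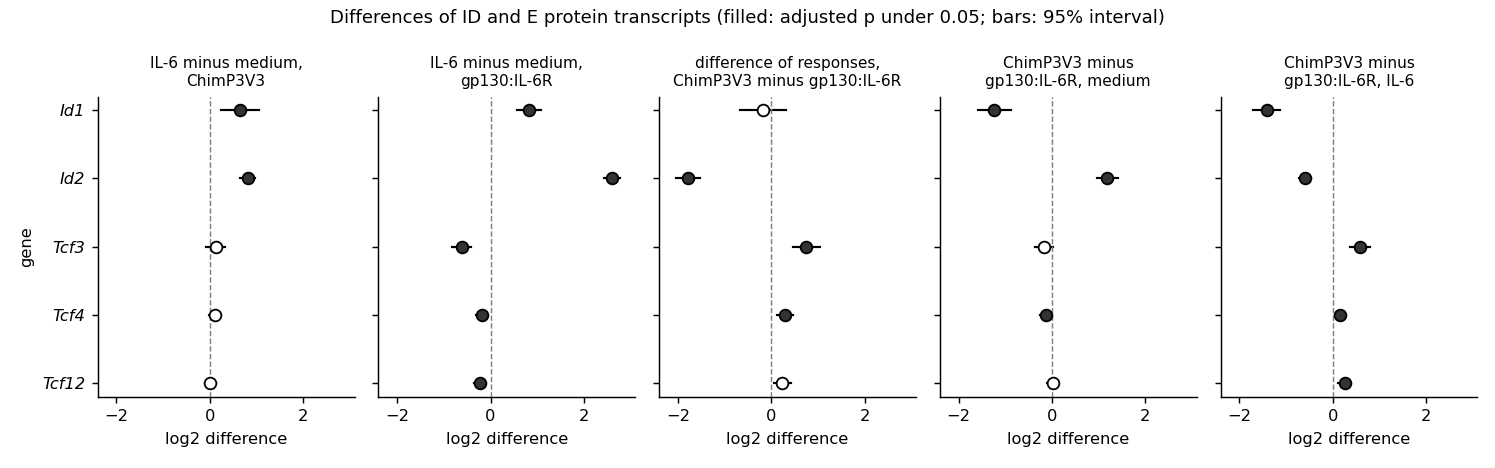
Log2 differences of the 5 members in 5 comparisons, 1 panel each, with filled points at an adjusted p under 0.05 and bars for the 95% interval. Id2 has a log2 difference under IL-6 of 0.82 in ChimP3V3 cells and 2.60 in gp130:IL-6R cells, and the difference of responses is -1.78.

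Whether the response to IL-6 differed between the lines was tested as the ChimP3V3 response minus the gp130:IL-6R response, which uses all 16 libraries. Receptor and line change together in this design and cannot be told apart. Of the 5 members, 3 were called, where 23.9% of all tested genes were called. The Id2 response was weaker in ChimP3V3 cells, with a difference of -1.78 on the log2 scale (SE 0.126, adjusted p = 1.36e-14), larger in size than in 98.5% of genes. For Tcf3 the difference was 0.75 (SE 0.143, adjusted p = 9.83e-05) and for Tcf4 it was 0.29 (SE 0.0838, adjusted p = 0.0076). For both genes, the mean level under IL-6 was above that in medium in ChimP3V3 cells and below it in gp130:IL-6R cells. The Tcf4 call was lost without replicate 2 of the ChimP3V3 libraries under IL-6 (adjusted p = 0.0549) or replicate 1 of the gp130:IL-6R libraries under IL-6 (adjusted p = 0.0860), and its adjusted p over all alternatives lay between 0.00373 and 0.0860. The Id1 difference did not pass the test (difference -0.18, 95% interval -0.67 to 0.31, adjusted p = 0.652), and that interval does not show that they were alike. The Tcf12 difference was 0.24 (SE 0.0876, adjusted p = 0.0638), and it was called by limma (adjusted p = 0.0330) and without replicate 2 of the gp130:IL-6R libraries in medium (adjusted p = 0.0405).

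The lines already differed in medium, and the ID genes did so in opposite directions. Of the 5 members, 3 were called, 1 higher and 2 lower in ChimP3V3 cells. Id1 was lower in ChimP3V3 cells, at 17.1 ± 2.43 CPM, against 40.5 ± 8.22 CPM in gp130:IL-6R cells (SD, n = 4 each), which is 2.35-fold lower (log2 difference -1.23, SE 0.176, adjusted p = 8.16e-08). Id2 was higher in ChimP3V3 cells, at 60.6 ± 3.52 CPM, against 26.7 ± 1.98 CPM in gp130:IL-6R cells (SD, n = 4 each), a 2.27-fold difference (log2 difference 1.18, SE 0.109, adjusted p = 1.33e-12). Neither gene's groups overlapped, and neither did those of Tcf3. Among all tested genes, 65.1% were called between the lines in medium, 31.7% higher and 33.4% lower in ChimP3V3 cells, and 57.4% had groups that did not overlap.

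The E protein genes were close between the lines in medium. Tcf3 averaged 57.5 ± 1.91 CPM in ChimP3V3 cells and 64.8 ± 3.76 CPM in gp130:IL-6R cells (SD, n = 4 each), and all 4 ChimP3V3 libraries were below all 4 gp130:IL-6R libraries, but the difference did not pass the test (log2 difference -0.17, SE 0.0949, adjusted p = 0.158). Tcf4 was called lower in ChimP3V3 cells, at 184 ± 10.7 CPM, against 202 ± 4.98 CPM in gp130:IL-6R cells (log2 difference -0.13, SE 0.0577, edgeR adjusted p = 0.0443). That call rested on the processing. It was lost with DESeq2 (adjusted p = 0.123), with limma (adjusted p = 0.0530) and without any 1 of replicates 1, 2 and 4 in ChimP3V3 cells or replicates 1 and 3 in gp130:IL-6R cells, and over all alternatives its adjusted p lay between 0.0179 and 0.163. Tcf12 had 151 ± 7.97 CPM in ChimP3V3 cells and 149.7 ± 6.68 CPM in gp130:IL-6R cells (log2 difference 0.01, edgeR adjusted p = 0.861).

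Under IL-6, all 5 members were called between the lines, where 62.8% of tested genes were called, 31.2% higher and 31.6% lower in ChimP3V3 cells. The groups did not overlap for 4 of the 5, against 54.9% of all tested genes. Both ID genes were then lower in ChimP3V3 cells. Id1 averaged 26.6 ± 7.62 CPM in ChimP3V3 cells and 71.5 ± 7.76 CPM in gp130:IL-6R cells under IL-6, 2.66-fold lower (log2 difference -1.41, SE 0.144, edgeR adjusted p = 2.52e-11). Id2 averaged 106.9 ± 6.91 CPM in ChimP3V3 cells and 162 ± 2.44 CPM in gp130:IL-6R cells under IL-6, 1.51-fold lower in ChimP3V3 cells (log2 difference -0.60, SE 0.0634, edgeR adjusted p = 7.56e-11). The E protein genes were higher in ChimP3V3 cells, by a log2 difference of 0.58 for Tcf3 (SE 0.107, adjusted p = 1.02e-05), 0.25 for Tcf12 (SE 0.0642, adjusted p = 0.00122) and 0.16 for Tcf4 (SE 0.0608, adjusted p = 0.0180). The Tcf4 groups overlapped, and its call was lost with DESeq2 (adjusted p = 0.0619) and without any 1 of the ChimP3V3 libraries or of replicates 1 and 2 in gp130:IL-6R cells, with an adjusted p between 0.00870 and 0.292 over all alternatives. These comparisons share groups of libraries with each other and are not independent.

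Read as an order of 4 levels, Id2 was lowest in gp130:IL-6R cells in medium, then ChimP3V3 cells in medium, ChimP3V3 cells under IL-6 and gp130:IL-6R cells under IL-6, and no neighbours in that order overlapped. Id1 had another order, with ChimP3V3 cells in medium lowest, then ChimP3V3 cells under IL-6, gp130:IL-6R cells in medium and gp130:IL-6R cells under IL-6. Only its top pair did not overlap. Tcf3 and Tcf12 each had 1 separate level, the low one of gp130:IL-6R cells under IL-6, and neighbours among their other 3 groups overlapped. For Tcf4, every neighbouring pair of groups overlapped.

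**Figure D3:**
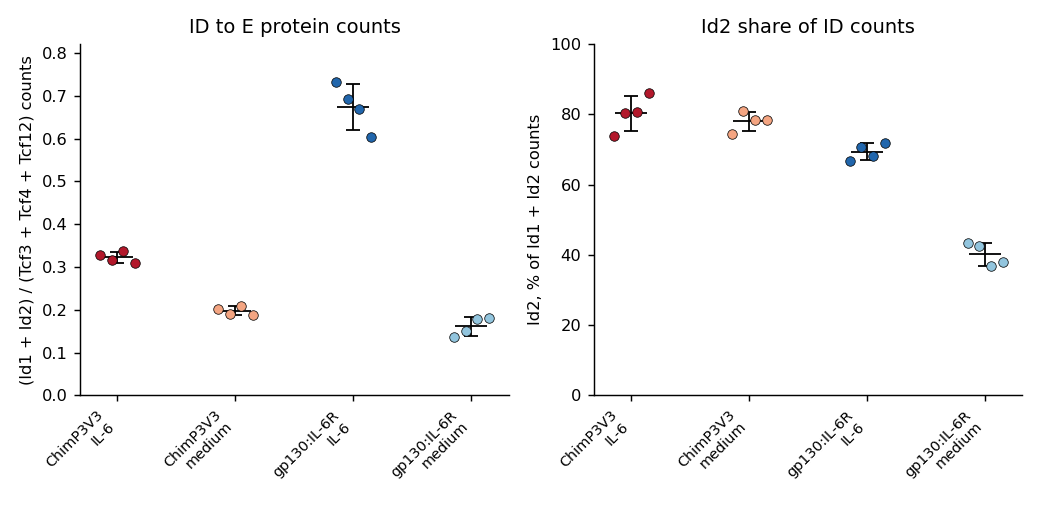
Left, the summed counts of Id1 and Id2 divided by the summed counts of Tcf3, Tcf4 and Tcf12, and right, Id2 as a percent of the counts of Id1 and Id2, for each library, with mean ± SD of 4. The ratio is highest in gp130:IL-6R cells under IL-6, at 0.603 to 0.733, and the Id2 percent is lowest in gp130:IL-6R cells in medium, at 36.8% to 43.3%.

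The balance between the families was described by dividing the counts of Id1 and Id2 by those of Tcf3, Tcf4 and Tcf12 in each library. This ratio of 3' tags is not a ratio of proteins, and it is given without a test because its members were chosen with results known. In ChimP3V3 cells it was 0.322 ± 0.0123 under IL-6, against 0.198 ± 0.010 in medium (SD, n = 4 each). The ratio in gp130:IL-6R cells was 0.674 ± 0.0544 under IL-6, against 0.161 ± 0.0218 in medium (SD, n = 4 each). No group overlapped another, with ChimP3V3 cells in medium starting at 0.189 and gp130:IL-6R cells in medium reaching 0.181. Most of the change lay in the numerator. In ChimP3V3 cells, ID levels summed to 133 ± 9.09 CPM under IL-6 and 77.7 ± 4.13 CPM in medium, and E protein levels to 414 ± 13.2 CPM under IL-6 and 392 ± 8.22 CPM in medium (SD, n = 4 each). In gp130:IL-6R cells, ID levels summed to 233 ± 7.87 CPM under IL-6 and 67.1 ± 10.1 CPM in medium, and E protein levels to 347 ± 17.5 CPM under IL-6 and 416 ± 12.2 CPM in medium (SD, n = 4 each).

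The mix of ID transcripts also differed by line. Id2 made up 80.2% ± 5.07 of the Id1 and Id2 counts in ChimP3V3 cells under IL-6 and 78.0% ± 2.70 in ChimP3V3 cells in medium (SD, n = 4 each). In gp130:IL-6R cells, it made up 69.4% ± 2.37 under IL-6 and 40.1% ± 3.24 in medium (SD, n = 4 each). The 2 genes' tags may be captured unequally, so a percent shows how the mix differed between groups and not which transcript was more abundant.

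Across the 16 libraries, Id1 and Id2 levels had a Pearson correlation of 0.31 on the log2(CPM + 1) scale, and Tcf3 and Tcf12 had 0.82. Id2 and Tcf3 had -0.66, but the deviations of the same genes from their group means had 0.42. These points share libraries and groups, and the values are descriptions. By the same measure among 9132 genes, the 3 most like Id2 were Gcnt1 (0.98), Npc2 (0.98) and Herpud1 (0.98), and the 3 most like Id1 were Larp1b (0.97), Ube2b (0.97) and Alox5ap (0.96). The 3 most like Tcf3 were Sfxn1 (0.93), Sf3b1 (0.92) and Rbks (0.92). For Tcf12 they were Mtmr12 (0.88), Mcm6 (0.88) and Psma4 (0.87), and for Tcf4 they were Rpia (0.92), Mnat1 (0.85) and Man1b1 (0.81). No gene stood in the top 3 of more than 1 member.

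Among 22 partners and corepressors of E proteins, the tissue-restricted bHLH and LIM factors that build DNA-bound complexes with them, 14 had a count and 8 were tested. Under IL-6, ChimP3V3 cells had 4 that rose and none that fell, and gp130:IL-6R cells had 4 that rose and 2 that fell, where 16.2% and 11.4% of all tested genes were called higher and lower in ChimP3V3 cells and 25.7% and 24.3% in gp130:IL-6R cells. The median log2 difference of the tested members was 0.19 in ChimP3V3 cells and 0.18 in gp130:IL-6R cells, where the median over all tested genes was 0.03 and 0.01. With abundant genes removed, Tal1 was itself left out and Lmo4 was not called, so that 2 members were called higher in ChimP3V3 cells. Cbfa2t3, a corepressor of the ETO family, rose 1.58-fold in ChimP3V3 cells, where it stood at 518 ± 20.4 CPM under IL-6, against 327 ± 19.6 CPM in medium (edgeR adjusted p = 7.37e-16). Cbfa2t3 in gp130:IL-6R cells stood at 302 ± 11.3 CPM under IL-6, against 116 ± 8.71 CPM in medium, a 2.61-fold rise (log2 difference 1.39, SE 0.0601, edgeR adjusted p = 3.30e-22). Tal1, an E protein partner of blood stem and erythroid cells, rose 1.16-fold in ChimP3V3 cells (edgeR adjusted p = 2.58e-06) and 1.28-fold in gp130:IL-6R cells (edgeR adjusted p = 2.21e-08). Its relative Lyl1 rose 1.32-fold in ChimP3V3 cells (adjusted p = 8.01e-06) and was also called higher in gp130:IL-6R cells. Lmo4, a LIM-only adaptor, was called higher in ChimP3V3 cells, and was 1.3-fold lower under IL-6 in gp130:IL-6R cells (adjusted p = 9.46e-12). Ssbp3, a single-stranded DNA-binding protein of LIM complexes, rose 1.40-fold in gp130:IL-6R cells (adjusted p = 3.48e-07). Another adaptor, Lmo2, fell 1.36-fold there (adjusted p = 1.13e-06), and limma did not call it (adjusted p = 0.0514).

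Of the same 8 partners, 4 were called higher and 2 lower in ChimP3V3 cells in medium, where 31.7% of all tested genes were called higher and 33.4% lower. Their median was 0.04, against a median of -0.0042 over all genes. Tal1 stood at 804 ± 33.4 CPM in ChimP3V3 cells, against 313 ± 7.79 CPM in gp130:IL-6R cells, 2.57-fold higher (edgeR adjusted p = 3.03e-29). Lmo2, the LIM-only adaptor of the Tal1 complex, stood at 9.69 ± 3.11 CPM in ChimP3V3 cells, against 143 ± 4.97 CPM in gp130:IL-6R cells, 14.7-fold lower (edgeR adjusted p = 1.18e-27). Cbfa2t3 was 2.83-fold higher (adjusted p = 1.36e-24), Ssbp3 was 1.75-fold higher (adjusted p = 1.15e-13) and Lmo4 was 3.84-fold lower in ChimP3V3 cells (adjusted p = 3.01e-32).

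**Figure D4:**
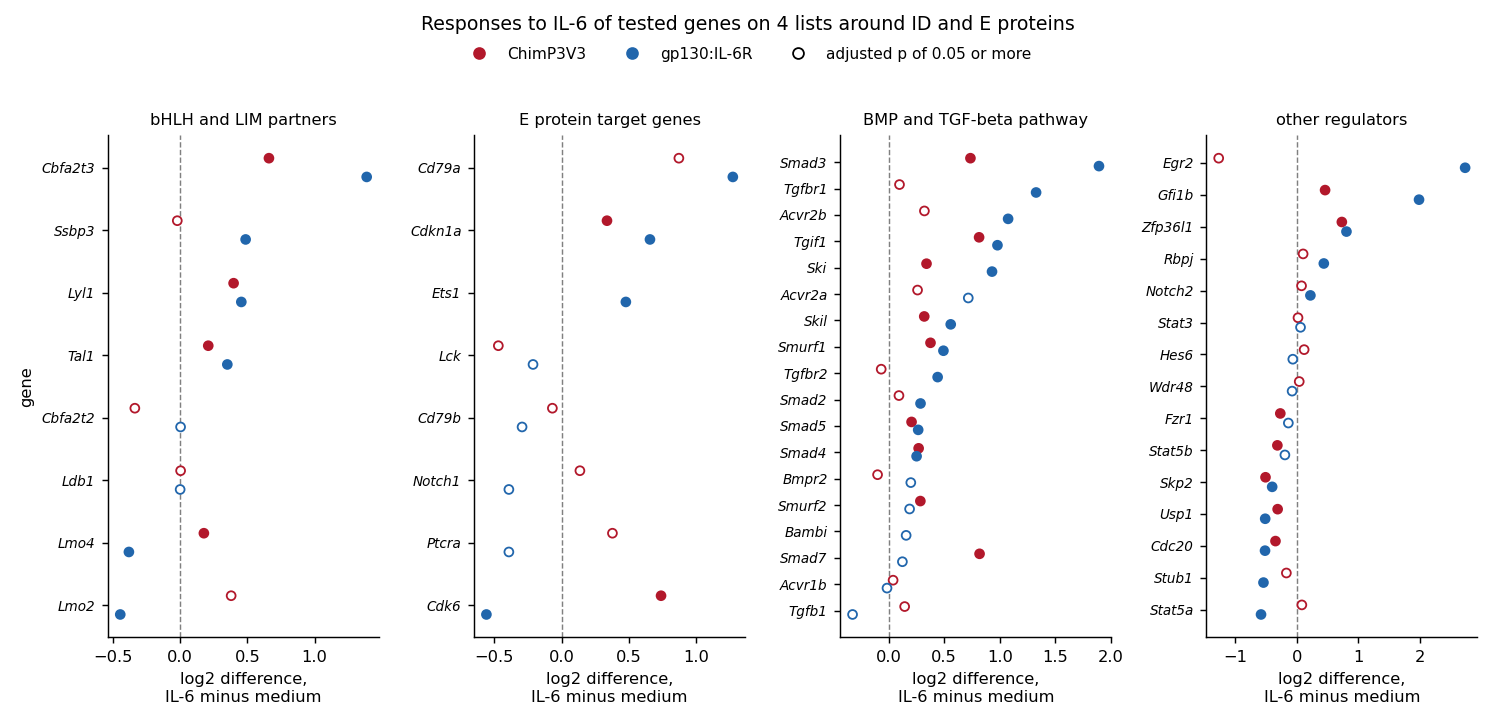
Log2 differences under IL-6 minus medium for the tested genes of 4 lists, with ChimP3V3 cells in red, gp130:IL-6R cells in blue, and open points where the adjusted p was 0.05 or more. Ets1 and Bambi, with 0 counts in ChimP3V3 cells, have no point there, and no gene of the BMP and TGF-beta list was called lower in either line. Cd79a and Egr2 passed the filter through gp130:IL-6R cells under IL-6, where they are high, and their blue points are not read as calls.

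Among 30 genes known as targets of E proteins in lymphoid progenitors, 21 had a count and 8 were tested. Genes at 0 in all 16 libraries included Rag1, Rag2 and Dntt of antigen receptor recombination, Cd3e, Blnk, Bcl11a, Irf8 and Spib. Under IL-6, ChimP3V3 cells had 2 that rose and none that fell, where 16.2% of all tested genes were called higher and 11.4% lower. Ets1, Cd79a and Lck reached the filter's level in no ChimP3V3 library, and Ptcra in 1. A call of these genes was hardly possible in ChimP3V3 cells, and no median over the list is given there. The gp130:IL-6R cells had 3 that rose and 1 that fell, with a median of -0.25, where all genes had a median of 0.01 and 25.7% were called higher and 24.3% lower. One of the 3, Cd79a, reached the filter's level in 4 libraries under IL-6 and 1 in medium. Cdk6, a cell cycle kinase repressed by E proteins in mouse T cells, moved in opposite directions. In ChimP3V3 cells it stood at 712 ± 14.8 CPM under IL-6, against 427 ± 13.0 CPM in medium, 1.67-fold higher (edgeR adjusted p = 1.48e-19). Cdk6 in gp130:IL-6R cells stood at 409 ± 16.8 CPM under IL-6, against 602 ± 16.9 CPM in medium, 1.47-fold lower (edgeR adjusted p = 4.32e-16). Cdkn1a, a cell cycle inhibitor, rose in both lines, 1.26-fold in ChimP3V3 cells (adjusted p = 8.27e-06) and 1.58-fold in gp130:IL-6R cells (adjusted p = 4.65e-14). Cd79a, a chain of the B cell receptor complex, is given without a test. It stood in gp130:IL-6R cells at 12.0 ± 3.08 CPM under IL-6, against 4.91 ± 2.19 CPM in medium. Ets1, a lymphoid transcription factor, rose 1.39-fold in gp130:IL-6R cells (adjusted p = 0.0193). Neither DESeq2 (adjusted p = 0.100) nor limma (adjusted p = 0.0976) called it, nor did edgeR without replicate 4 of the medium or replicate 3 of the IL-6 libraries of that line.

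The lines were also compared in medium, where 31.7% of all tested genes were called higher and 33.4% lower in ChimP3V3 cells. Ets1, Lck and Cd79a reached the level of the filter on low counts in no ChimP3V3 library, and Ptcra in 1, so they were tested through the gp130:IL-6R libraries where they are high, and no count or median over the list is given for this comparison. Ets1 had 0 counts in every ChimP3V3 library and 21.4 ± 1.67 CPM in gp130:IL-6R cells, at least 42.3-fold lower against a floor of 3 counts over the group. Lck, a kinase of T cell signalling, stood at 1.32 ± 1.38 CPM in ChimP3V3 cells, against 12.0 ± 1.79 CPM in gp130:IL-6R cells, and is given without a test. Cdk6 was 1.41-fold lower (adjusted p = 3.30e-15). Cd79b was also called lower, and no test is given for Cd79a and Ptcra, as for Lck.

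BMP and TGF-beta signals reach Id genes through receptors and SMAD proteins, and 30 of the 33 genes listed for this pathway had a count and 18 were tested. Under IL-6, ChimP3V3 cells had 9 that rose, with a median of 0.26, where 16.2% of all tested genes were called higher and their median was 0.03. The gp130:IL-6R cells had 11 that rose, with a median of 0.36, where 25.7% of all tested genes were called higher and their median was 0.01. None of the 18 was called lower in either line, but Bambi had 0 counts in ChimP3V3 cells and could not be called there. The ChimP3V3 count was 4 with DESeq2 or with no filter, and 5 with thinned counts or without replicate 2 or 3 of the IL-6 libraries. Smad3, which carries TGF-beta signals to the nucleus, rose 1.66-fold in ChimP3V3 cells (adjusted p = 0.000316). Smad3 in gp130:IL-6R cells stood at 26.0 ± 3.64 CPM under IL-6, against 7.02 ± 2.29 CPM in medium, 3.71-fold higher (edgeR adjusted p = 1.19e-09). Tgfbr1, a type I receptor, stood at 146 ± 3.69 CPM in gp130:IL-6R cells under IL-6, against 58.0 ± 3.16 CPM in medium, 2.51-fold higher (edgeR adjusted p = 2.95e-18). Ski, which represses SMAD-driven transcription, rose 1.27-fold in ChimP3V3 cells (adjusted p = 0.000488) and 1.90-fold in gp130:IL-6R cells (adjusted p = 2.13e-11). Tgif1, another SMAD corepressor, rose 1.76-fold in ChimP3V3 cells (adjusted p = 2.51e-05). It also rose in gp130:IL-6R cells, at 78.3 CPM under IL-6 against 39.4 CPM in medium (edgeR adjusted p = 1.46e-09). The genes that rose included both carriers and repressors of the signal.

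In medium, Ski, Smad3, Smad2, Smad5, Acvr2b and Acvr1b of that pathway were called higher in ChimP3V3 cells. Tgfbr1, Smad7, Skil, Bmpr2, Tgif1 and Tgfb1 were called lower there. Among all tested genes, 31.7% were called higher and 33.4% lower. Bambi reached the filter's level in no ChimP3V3 library, and Acvr2a in no gp130:IL-6R library. Each was tested through the line where it is high, so no count or median over the list is given for this comparison. Smad3 was 3.14-fold higher (adjusted p = 3.10e-08), Ski 1.94-fold (adjusted p = 3.21e-12) and Smad2 1.29-fold (adjusted p = 6.88e-05). Smad7, an inhibitor of the pathway, was 2.43-fold lower (adjusted p = 8.54e-07), and Tgfbr1 was 1.71-fold lower (adjusted p = 5.14e-08). Bambi, a decoy receptor, had 0 counts in every ChimP3V3 library, at least 19.6-fold lower in medium.

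Of 17 other genes that act on Id genes, E protein genes or the turnover of their products, 15 were tested. Under IL-6, ChimP3V3 cells had 2 that rose and 5 that fell, with a median of 0.02, where 16.2% of all tested genes were called higher and 11.4% lower, with a median of 0.03. In gp130:IL-6R cells, Zfp36l1, Gfi1b, Rbpj and Notch2 were called higher and Usp1, Cdc20, Stub1, Stat5a and Skp2 lower. Among all tested genes in that line, 25.7% were called higher and 24.3% lower. Of the 4 groups, Egr2 reached the filter's level only in the IL-6-treated gp130:IL-6R cells, where it is high. No test of it is given, nor a count or median over the list for that line. In ChimP3V3 cells the falls numbered 3 with DESeq2 and without replicate 2 of the medium or replicate 4 of the IL-6 libraries. Gfi1b, a transcriptional repressor of erythroid cells, rose 1.38-fold in ChimP3V3 cells (adjusted p = 0.00201), where limma did not call it (adjusted p = 0.0754) and so left 1 rise. Gfi1b in gp130:IL-6R cells stood at 49.1 ± 4.63 CPM under IL-6, against 12.1 ± 4.35 CPM in medium, 3.97-fold higher (edgeR adjusted p = 3.11e-12). Zfp36l1, which promotes decay of mRNA, rose 1.66-fold in ChimP3V3 cells (adjusted p = 2.28e-11) and 1.75-fold in gp130:IL-6R cells (adjusted p = 3.31e-13). Rbpj, the nuclear partner of Notch, rose 1.36-fold in gp130:IL-6R cells (adjusted p = 2.04e-09). Usp1, a deubiquitinase that stabilises ID proteins in human osteosarcoma cells, fell 1.24-fold in ChimP3V3 cells (adjusted p = 2.64e-08) and 1.43-fold in gp130:IL-6R cells (adjusted p = 4.96e-14). Cdc20, an activator of the anaphase-promoting complex, fell 1.27-fold in ChimP3V3 cells (adjusted p = 0.000256) and 1.43-fold in gp130:IL-6R cells (adjusted p = 6.33e-09). Skp2, of a ubiquitin ligase, fell 1.42-fold in ChimP3V3 cells (adjusted p = 0.00365) and was also called lower in gp130:IL-6R cells (adjusted p = 0.0117). Stub1, another ubiquitin ligase, fell 1.46-fold in gp130:IL-6R cells (adjusted p = 3.73e-05). In medium, 7 were higher and 2 lower in ChimP3V3 cells, with a median of 0.25, where 31.7% of all tested genes were called higher and 33.4% lower, with a median of -0.0042. Gfi1b was 4.71-fold higher (adjusted p = 1.01e-14), Rbpj 1.32-fold higher (adjusted p = 9.85e-09), Hes6 1.28-fold higher (adjusted p = 2.07e-05), Stat3 1.31-fold lower (adjusted p = 2.68e-09) and Cdc20 1.3-fold lower (adjusted p = 1.23e-06).

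The labelled pro-B identity was checked on 14 markers, and many defining ones were absent. Rag1, Rag2, Dntt and Blnk had 0 counts in every library, and Ebf1 and Pax5 had 29 and 7 counts over all 16. Others on the list were present at low counts, with 258 for Cd79b, 103 for Cd79a and 93 for Vpreb1 over all 16. Ptprc, shared by most blood cells, held 8568 counts. The other 13 markers together reached 15.2 to 20.2 CPM in ChimP3V3 cells under IL-6, 12.4 to 16.0 CPM in ChimP3V3 cells in medium, 25.9 to 32.3 CPM in gp130:IL-6R cells under IL-6 and 15.0 to 29.9 CPM in gp130:IL-6R cells in medium. Markers of other cells moved with the groups. The 9 erythroid and megakaryocyte markers, 8 with a count in ChimP3V3 cells, summed to 2169 to 2199.9 CPM in ChimP3V3 cells under IL-6 and 1210 to 1366 CPM in medium, against 169.5 to 184 CPM in gp130:IL-6R cells under IL-6 and 174 to 202 CPM in medium. These sums hide moves of single markers, of which 7 were tested. Under IL-6 in gp130:IL-6R cells, Klf1 (log2 difference -1.51) and Gata1 (-1.23) were called lower and Itga2b (0.88) higher. In ChimP3V3 cells, the globin gene Hbb-bs stood at 859 CPM under IL-6 and 321 CPM in medium. The globin gene Hba-a1 stood at 780 and 493 CPM there. Both were called higher in that line, as was Itga2b (0.44), and the other 4 were not called. The 7 mast cell and basophil markers, 4 with a count in ChimP3V3 cells, summed to 82.5 to 97.0 CPM in ChimP3V3 cells under IL-6 and 23.1 to 34.7 CPM in medium, against 6.23 to 12.0 CPM in gp130:IL-6R cells under IL-6 and 6.01 to 8.56 CPM in medium, with Kit, Mcpt8 and Tpsb2 at 0 in ChimP3V3 cells. The 8 macrophage and dendritic cell markers summed to 5.51 to 43.1 CPM over all libraries, with Cd14, Itgax and Flt3 at 0 in each group. The 9 T and NK cell markers reached at most 4.02 CPM, and the fibroblast and epithelial markers at most 3.40 CPM. Their part in the differences of Id1 and Id2 was not tested.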

How the data were processed

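RNA was measured in 16 libraries made with a kit that sequences 3' ends (QuantSeq FWD, 100 ng RNA, single reads of 100 bases), per the labels' protocols. The deposited values are raw counts per gene. Per the file headers, the authors used CLC Genomics Workbench 23.0.4, the build GRCm39 and the annotation of Ensembl release 107. The sources used here do not give the strand setting, read filters or handling of duplicates, and a further 48 columns of values per library were not used. Tag counts near the 3' end depend on the annotated end of each transcript.

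Genes were filtered with filterByExpr (count of 10, total of 15), which kept 9540 genes with 99.6% of counts. Scaling was TMM, and edgeR 4.0.16 in R 4.3.3 (quasi-likelihood, 1 mean per group, 12 residual degrees of freedom) gave two-sided p-values with Benjamini-Hochberg adjustment over all 9540. It was tested on counts simulated for IL-6 against medium in gp130:IL-6R cells, with 200 changed genes. It recovered 88% of the 2-fold and 69% of the 1.5-fold changes, with 9 false calls. The simulation gave all genes the same relative spread beyond counting error, and no other gene differed between the groups. In the real comparison 4769 genes were called, so these figures may not hold for the real data. SE is an approximate standard error of a log2 difference, from the edgeR fit. For the Id2 response in gp130:IL-6R cells it was 0.0852, against 0.134 with DESeq2 and 0.0763 with limma. The printed SEs, and the intervals built on them, may therefore be too narrow, and calls rest on the adjusted p. CPM values were computed from the counts with the TMM factors.

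The members and the lists were chosen with earlier results of these data known. Members were named whether called or not. From each list, up to 3 called genes per direction with the smallest p were named in each IL-6 response and between the lines in medium, and other list genes were named after their values were seen. A few list and marker genes are left out of the text. Like genes were the 3 with the highest correlation, at a mean CPM of at least 5. Promoter sequences came from RefSeq, on GRCm38.p6. Alternatives were RLE and upper-quartile scaling, other filters and thresholds, DESeq2 1.42.0, limma 3.58.1 on log2(CPM + 1), fits of the compared groups alone, a block for the replicate number, each library left out and, chosen after seeing the data, merged, thinned and abundance-limited counts. Python 3.11.15 made tables and plots.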

Additional observations from a re-analysis of the deposited data

Results flagged for a closer look

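The Tcf4 level of 210.4 CPM in replicate 2 of the ChimP3V3 libraries under IL-6 stood apart from the other 3 libraries of its group, by a gap larger, relative to the group's range, than Dixon's critical value at the 95% level. Of 20 groups of member values tested this way, it was the only one, and chance gives about 1 in 20.

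The response to IL-6 differed between the lines by the test of the difference itself, ChimP3V3 minus gp130:IL-6R, for Id2 (-1.78 on the log2 scale), Tcf3 (0.75) and Tcf4 (0.29). The Tcf4 difference is the smallest of these, and it used the library that stood apart. Without that library it was not called (adjusted p = 0.0549).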

How the results depend on the processing

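All called differences of Id1 in gp130:IL-6R cells and between the lines, of Id2 in every comparison, and of Tcf3 and Tcf12 in gp130:IL-6R cells kept their call and direction under every alternative scaling, filter and tool, with each library left out, and at an adjusted p under 0.01. The same holds for the difference of responses of Id2 and Tcf3 and for Tcf3 and Tcf12 between the lines under IL-6. A fold of at least 1.5 removed the calls of Tcf4 (-0.18) and Tcf12 (-0.23) in gp130:IL-6R cells, of Tcf4 in the difference of responses (0.29), of Tcf4 in medium (-0.13), and of Tcf3 (0.58), Tcf4 (0.16) and Tcf12 (0.25) under IL-6. An adjusted p under 0.01 removed those of Id1 in ChimP3V3 cells (0.65) and of Tcf4 in medium (-0.13) and under IL-6 (0.16).

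Tcf4 between the lines in medium lost its call at log2 differences of -0.13 (RLE factors, no filter, DESeq2 and limma), -0.12 (CPM of at least 5, and only the groups compared), -0.093 (upper-quartile factors) and -0.11 (abundant genes removed). Under IL-6 it lost it with no filter (0.13), a CPM of at least 5 (0.13) and DESeq2 (0.16). Tcf12 was called in the difference of responses by limma (0.24). The uncalled Tcf12 response in ChimP3V3 cells, near 0, changed sign with RLE factors (-0.00054), upper-quartile factors (-0.0062), a CPM of at least 5 (-0.018), no filter (-0.020), only the groups compared (-0.019), DESeq2 (-0.00052), thinned counts (-0.0087) and abundant genes removed (-0.017). The cause was not tested.

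With 1 library left out, Id1 in ChimP3V3 cells ranged over 0.44 to 0.78, Tcf12 in ChimP3V3 cells over -0.051 to 0.034, Tcf4 in gp130:IL-6R cells over -0.23 to -0.12, and the differences of responses of Tcf4 over 0.21 to 0.33 and of Tcf12 over 0.16 to 0.27. Between the lines in medium, Tcf4 ranged over -0.17 to -0.11 and Tcf12 over -0.020 to 0.049, and under IL-6 Tcf4 ranged over 0.082 to 0.19.

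Over all genes, 2625 were called in ChimP3V3 cells (1541 higher, 1084 lower), and 510 (293 and 217) at 1.5-fold or more. In gp130:IL-6R cells the counts were 4769 (2454 and 2315) and 1558 (995 and 563). For the difference of responses they were 2280 (1182 and 1098), 1006 (394 and 612) at 1.5-fold, 1453 (724 and 729) at an adjusted p under 0.01, and 744 higher with DESeq2. Between the lines they were 6209 (3021 and 3188) and 3111 (1520 and 1591) in medium, and 5992 (2977 and 3015) and 3078 (1474 and 1604) under IL-6.

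The labels state no pairing of libraries by replicate number, and the deviations of same-numbered libraries correlated between -0.0789 and 0.0453 over 8 pairs. Deviations within groups were near sampling noise, so paired libraries could also show low correlations and a pairing is not excluded. With the number as a replicate block, the count called was 2548 in ChimP3V3 cells and 4707 in gp130:IL-6R cells, the Id2 response in gp130:IL-6R cells was 2.60, and no call of a member changed. Depth limits Id1 most, at 21 to 118 counts per library, and it bounds Id3 only as a floor.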
